A study of Mus musculus with 22 samples.

Results

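The comparison is the genotype difference in the hypothalamus pooled over undisturbed and sleep-deprived mice, in 14 of the 22 libraries of the study. PWScrm+/p− mice, called mutant, inherit from the father a chromosome without the Snord116 small nucleolar RNA genes. PWScrm+/p+ mice, called control, carry the intact paternal cluster. The deletion is inherited through the germline, so it is present in all cells of the mutant animals and through all of development. All mice were C57BL/6J. Each library carries its own number in the titles, and the labels used here give neither sex nor age, nor say in words that each library is a separate mouse. ZT6 mice were taken 6 h after lights on, and SD mice at the same clock time after 6 h of sleep deprivation. The 6 mutant libraries are 2 of ZT6 and 4 of SD, and the 8 control libraries are 4 of ZT6 and 4 of SD. The 6 libraries taken at lights on (ZT0) do not enter. Mutant minus control was estimated for each gene in an additive model with a genotype term and a state term, mutant over control throughout.

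The 14 libraries were chosen on depth and on transcripts of neural cells, so neither is a finding here. Of the libraries kept, the shallowest held 14609454 counts, and of the 2 left out at ZT6 mutant replicate 2 held 7348 counts in all. The other library left out, mutant ZT6 replicate 3, had 17773316 counts, but its 7 neuronal markers summed to 63.86 CPM, reads counted per 1000000. In the 14 the same markers summed to 2283 to 3724 CPM in mutants and 2768 to 3816 CPM in controls on the scaled values used below. The 12 myelin markers summed to 3199 to 8616 CPM in mutants and 5288 to 8714 CPM in controls. The mutant ZT6 arm therefore rests on replicates 1 and 4. Index numbers in the sample titles fall into 3 runs, here called index sets 1 (1 to 4), 2 (5 to 18) and 3 (43 to 46). The labels do not say what they stand for. Libraries of unlike genotype in the same set had a median Spearman correlation of 0.9665 over genes (16 pairs), and libraries of like genotype in different sets 0.9496 (32 pairs). It was 0.9828 for like genotype in the same set (11 pairs) and 0.9525 for unlike genotype in different sets (32 pairs). For the leading genes and lists the difference was therefore also taken within the 5 combinations of set and state that hold both genotypes, which have 1 or 2 libraries on a side.

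Snord116 RNAs belong to the C/D box small nucleolar RNAs, which guide chemical modification of other RNAs and are cut from introns of a host transcript. In mouse the copies lie in the introns of Snhg14, a long transcript made from the paternal chromosome in neurons, which continues as the antisense partner of Ube3a. Loss of the paternal cluster is part of the genetic lesion of Prader-Willi syndrome, in which hypothalamic feeding, growth and sleep are disturbed. The copies are shown because their presence or absence is the lesion compared. GENCODE M21 (GRCm38) has 70 copies at chr7:59673461-59904848 on the minus strand, with 27 distinct sequences, and 30 copies are identical. In the lines below capitals mark the C box (TGATGA) and the last D box motif (CTGA), each sequence runs 5′ to 3′, and positions count from 1 at the 5′ end. The first is the sequence shared by 30 copies, represented by Snord116l11 at chr7:59902213-59902306, with 0 counts in mutants and 3630 in controls. Gm26188, at chr7:59723644-59723737 and shared by 3 copies, has T11C in the C box and held 525 control counts and no mutant counts. Gm23619, at chr7:59804471-59804564 and shared by 3 copies, has C61T and held 3 of the 4 mutant counts, against 405 control counts.
Snord116l11: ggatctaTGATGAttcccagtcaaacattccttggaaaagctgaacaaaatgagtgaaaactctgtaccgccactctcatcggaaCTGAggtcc
Gm26188: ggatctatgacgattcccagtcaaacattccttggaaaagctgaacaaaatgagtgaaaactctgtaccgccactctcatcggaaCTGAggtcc
Gm23619: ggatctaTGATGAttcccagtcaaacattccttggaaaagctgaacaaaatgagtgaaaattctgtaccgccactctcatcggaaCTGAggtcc
The 6-letter C box motif was found in 66 of the 70 copies and the D box letters in all 70. Copies this alike share reads, so counts of single copies are uncertain and the copies were summed. Most of the control counts came from control ZT6 replicate 2.

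The deleted locus was examined first, since it checks the labels. The summed Snord116 copies had 4 counts in mutant ZT6 replicate 1 and 0 counts in the other 5 mutant libraries. Controls had 64, 5468, 67 and 0 counts at ZT6 and 6, 6, 492 and 0 counts after SD. Among controls 68 of the 70 copies were counted at least once, and among mutants 4. Both control libraries of index set 3 were thus at 0, where 3 counts, the most that a count of 0 allows, would be 0.2085 and 0.1507 CPM. In that set the genotype cannot be read from Snord116. Poly(A) selection does not target these RNAs. On log2(CPM + 1) the mutants averaged 0.0269 and the controls 2.06, a difference of −2.03 (two-sided exact permutation test within state, p = 0.05238, adjusted over 3 features 0.09714, 1050 arrangements, smallest possible p 0.0009524). Most control counts came from control ZT6 replicate 2, at 5468. Without that library the difference was −1.17. On CPM without a log, with all 14 libraries, the unadjusted exact permutation p was 0.3476.

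Snhg14, the host transcript (chromosome 7, 59307924 to 59975759, minus strand), had 280 and 216.6 CPM in the 2 mutant ZT6 libraries and 224.7, 372, 307.4 and 202.5 CPM in the 4 mutant SD libraries. Controls had 393, 606.4, 1923 and 234.8 CPM at ZT6 and 446.3, 528.3, 399.1 and 190 CPM after SD. In index sets 1 and 2 every control stood above every mutant. In set 3 the mutants at 216.6 and 202.5 CPM and the controls at 234.8 and 190 CPM overlapped. The mean was 267 ± 65.3 CPM in mutants (SD, n = 6) and 590 ± 556 CPM in controls (SD, n = 8), and the fit gave −0.94 ± 0.44 on the log2 scale (± SE, unadjusted p = 0.05129, edgeR adjusted p = 0.9891). By the exact permutation test the difference in log2(CPM + 1) was −0.81 (p = 0.06476, adjusted 0.09714). Without the 4 libraries of index numbers 43 to 46 it was −1.02 (exact p = 0.0125), and Snord116 was then at −2.71 (exact p = 0.0125). Both p-values are unadjusted and are the smallest that the permutation test can give with the libraries that remain. The exclusion removed the only controls that did not stand above every mutant. The p-values follow from that exclusion and cannot serve as a test of the locus. Without control ZT6 replicate 3, the library at 1923 CPM, the fitted estimate for Snhg14 was −0.56. Snord115, the neighbouring snoRNA cluster in the same host (137 genes), averaged 3.43 ± 3.39 CPM in mutants and 13.5 ± 25.7 CPM in controls (exact permutation p = 0.3514).

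**Figure D1:**
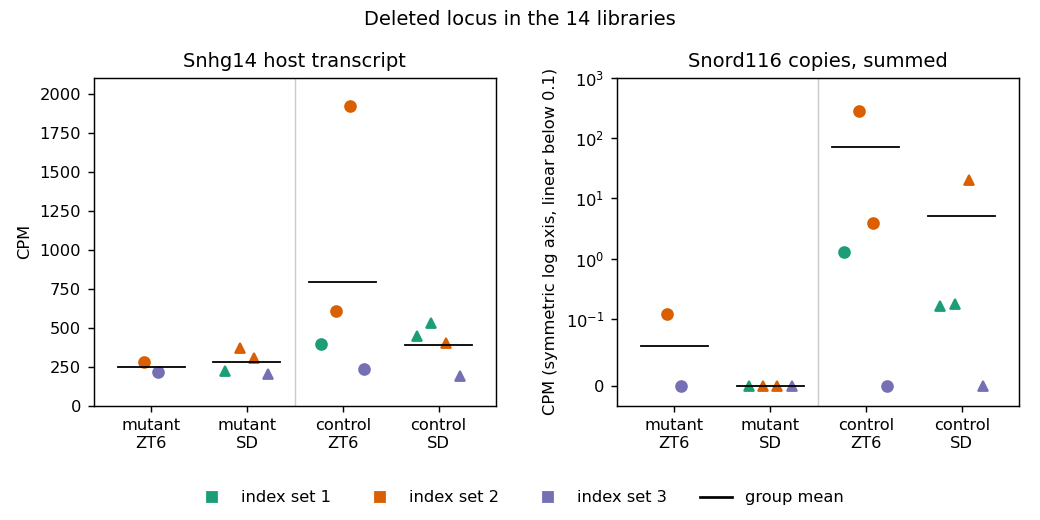
CPM of the Snhg14 host transcript (left, linear axis) and of the summed Snord116 copies (right, symmetric log axis, linear below 0.1) in the 14 libraries, mutant groups left of control groups. Points are libraries (circles ZT6, triangles SD), colours are index sets and bars are group means. The index set 3 controls lie among or just below the mutants for Snhg14 and at 0, as do most mutants, for Snord116.

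The Prader-Willi region holds paternally and maternally expressed genes around the deletion, and biallelic neighbours. Of its 12 genes tested, Snhg14 included, 5 had estimates above 0 and 7 below, and none passed an adjusted p of 0.05 or an unadjusted one. With the index sets as a further term 2 had an unadjusted p under 0.05, where 7.28% of all genes did. These were Snhg14 (−0.84 ± 0.35) and Ube3a (+3.91 ± 1.05), and neither passed adjustment. Ndn, which encodes necdin, a regulator of neuronal survival, ranged from 685 to 1171 CPM in mutants (median 824) and 437 to 1421 CPM in controls (median 671), all mutants inside the control range (+0.28 ± 0.24, higher in 5 of 5 combinations of set and state). Magel2, a regulator of ubiquitin ligases in hypothalamic secretory neurons, had −0.34 ± 0.17, with mutants at 53.9 to 80.4 CPM and controls at 60.7 to 122 CPM. With the index set term it was −0.17. Snrpn, the splicing protein gene upstream of Snhg14, had −0.04 ± 0.21 and ran from 559 to 1130 CPM in mutants and 709 to 1501 CPM in controls. Snurf, which shares its transcript with Snrpn, was at +0.36 ± 0.71 and cannot be separated from Snrpn where reads are shared. Mkrn3 (+0.32 ± 0.38) and Peg12 (−0.38 ± 0.63) were at 0.112 to 2.22 CPM in these libraries or, for Peg12 in control ZT6 replicate 3, at 0. Among the neighbours, the GABA receptor subunits Gabra5 (−0.33 ± 0.23) and Gabrg3 (+0.17 ± 0.18) and the phospholipid flippase Atp10a (−0.28 ± 0.25) gave estimates within 2 SE of 0. Ube3a, the maternally expressed ubiquitin ligase opposite the end of Snhg14, was listed at 0 in 3 of 6 mutant libraries and at 22.9 to 49.4 CPM in the other 3. Controls held 0 in 5 of 8 libraries and 1.47 to 9.44 CPM in 3. No source used here says whether strand was used in counting, so reads of Ube3a and its antisense partner cannot be told apart.

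Across the transcriptome no gene was called. Of 20809 genes tested with edgeR, 0 (0%) had an adjusted p under 0.05, and the smallest adjusted p was 0.9891. At an unadjusted p under 0.05 there were 568 genes (2.73%), 196 higher (0.942%) and 372 lower (1.79%) in mutants. DESeq2 called 1 gene, limma-voom 0, and limma-voom with sample weights 0, although 5040 genes had an unadjusted p under 0.05 in that last fit (smallest adjusted p 0.1243). Over all genes 55.5% of estimates lay below 0, the median log2 fold change was −0.038, and the quartiles were −0.235 and 0.137. Of 16734 genes at a mean of at least 1 CPM, 13462 (80.45%) had a 95% interval inside a 2-fold difference in either direction, with a median SE of 0.216. State in the same fit gave 0 genes (898, 4.32%, at an unadjusted p under 0.05; DESeq2 27). With the index sets as a term genotype again gave 0 genes, 1515 (7.28%) had an unadjusted p under 0.05, and state gave 4 (0.0192%). Those 4, named after their values were seen, were Chordc1, Paqr8 and Gm28035, higher after SD, and Rbm3, lower after SD.

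The gene called by DESeq2, Gm28439, was also named after its values were seen. In mutants it had 1556 CPM at ZT6 (replicate 4), 314.3 and 932.8 CPM after SD (replicates 3 and 4), and 0 in the other 3 mutants. Controls had 59.71 and 443.2 CPM in ZT6 replicates 3 and 4, and 0 in the other 6. Both genotypes therefore hold libraries at 0 and libraries far above it. DESeq2 gave 16.35 on the log2 scale (adjusted p = 0.001238), and edgeR 9.40 ± 3.94 (unadjusted p = 0.03069). With the index set term edgeR gave 4.89 ± 3.75.

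Genes that lead the list in the higher direction were read as a description, since none passed the test. C1ql3 (ENSMUSG00000049630, chromosome 2, 13003457 to 13011806, minus strand, GRCm38), a secreted C1q-like protein of synapses, had 23.9 and 24.4 CPM in mutants at ZT6 and 18.2, 34.5, 28.2 and 27.9 CPM after SD. In controls it had 12.3, 14.2, 18.6 and 17.1 CPM at ZT6 and 13.6, 16.5, 24.1 and 13.7 CPM after SD. Of the 6 mutants 4 stood above every control. Mutant ZT6 replicate 1 lay just below control SD replicate 3, and mutant SD replicate 1 also below control ZT6 replicate 3. C1ql3 averaged 26.2 ± 5.44 CPM in mutants (SD, n = 6) and 16.3 ± 3.80 CPM in controls (SD, n = 8), a log2 fold change of +0.66 ± 0.17 (95% interval 0.29 to 1.03, unadjusted p = 0.001711, edgeR adjusted p = 0.9891). It was higher in mutants in 5 of 5 combinations of set and state, which holds for 5.07% of all genes tested, and its estimates at ZT6 and after SD were +0.64 and +0.68. Spata18, a mitochondrial quality control protein induced by p53, had 1.60 and 4.16 CPM in mutants at ZT6 and 4.85, 1.61, 1.45 and 3.13 CPM after SD. All 8 controls lay between 0.781 and 1.52 CPM. The estimate of +1.22 ± 0.33 was +0.80 without the 3 libraries that hold pituitary transcripts, of which 2 are mutant. Pms1, a DNA mismatch repair protein, ranged from 4.85 to 8.78 CPM in mutants and 3.27 to 5.42 CPM in controls (+0.59 ± 0.16).

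Of the rest of the higher 10, Zfp382, a zinc finger repressor, had +0.81 ± 0.23, Dennd1b, an exchange factor for Rab GTPases, +1.16 ± 0.34, Rsph4a, a radial spoke protein of motile cilia, +0.51 ± 0.15, and Rbm7, an RNA exosome adaptor, +0.58 ± 0.17. Dennd1b ran from 2.88 to 8.95 CPM in mutants and 1.21 to 5.79 CPM in controls, so the ranges overlapped. The remaining 3 of the 10 are processed pseudogenes, intronless copies that share sequence with their parent genes, and their values are uncertain for that reason. Gm2223 had 7.19 CPM in a ZT6 mutant (replicate 4), 3.41 and 9.40 CPM in SD mutants (replicates 1 and 4), and 0 in the other 3 mutants and all 8 controls. Gm5884 had 19.9 and 7.95 CPM in replicate 4 of the ZT6 and of the SD mutants, 1.25 CPM in control ZT6 replicate 4, and 0 elsewhere. Gm9755 was above 1 CPM in those 3 libraries and in mutant SD replicate 2. For Gm5884 and Gm9755, every library of index set 3 except control SD replicate 4 was thus above 1 CPM.

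In the lower direction the first gene was Cck, the cholecystokinin precursor, a satiety peptide and neuropeptide. Cck (ENSMUSG00000032532, chromosome 9, 121489824 to 121495694, minus strand) had 9.78 and 10.1 CPM in mutants at ZT6 and 12.03, 8.20, 9.45 and 9.29 CPM after SD. In controls it had 16.4, 24.7, 9.85 and 15.01 CPM at ZT6 and 16.3, 20.5, 8.59 and 27.7 CPM after SD. The 6 mutants lay close together, and 2 controls, ZT6 replicate 3 and SD replicate 3, lay among them. The means were 9.82 ± 1.27 CPM in mutants (SD, n = 6) and 17.4 ± 6.67 CPM in controls (SD, n = 8), a log2 fold change of −0.83 ± 0.25 (95% interval −1.36 to −0.31, unadjusted p = 0.004285, edgeR adjusted p = 0.9891). It was lower in mutants in 4 of 5 combinations. The estimate was −0.55 without control ZT6 replicate 2 and control SD replicate 4. Acta2, smooth muscle actin, a marker of vessel walls, had 1.98 to 5.48 CPM in mutants (median 3.51) and 4.64 to 17.6 CPM in controls (median 5.60), an estimate of −1.12 ± 0.34. Without control SD replicate 4, the library at 17.6 CPM, it was −0.73. Gpr83, a G protein-coupled receptor expressed in feeding circuits, had 26.6 to 41.2 CPM in mutants (median 32.5) and 31.8 to 55.6 CPM in controls (median 42.8), at −0.42 ± 0.13. It was lower in mutants in 5 of 5 combinations of set and state, as were 4.67% of genes tested. The estimate was −0.26 without the 3 libraries with pituitary transcripts.

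The other 7 of the lower 10 were Eva1c (−0.95 ± 0.29), a receptor of axon guidance, Traip (−0.44 ± 0.14), a ubiquitin ligase of DNA replication, and Cfp (−0.62 ± 0.19), properdin of the complement pathway, with Krt77 (−0.50 ± 0.16), a keratin, Fam234a (−0.59 ± 0.19), Dennd6b (−0.44 ± 0.14), and Slco4a1 (−0.81 ± 0.26), an organic anion transporter. All 7 were lower in mutants in 5 of 5 combinations. Traip, for example, had 12.8 to 19.5 CPM in mutants and 18.3 to 25.9 CPM in controls. Genotypes without any overlap were rare in the whole table, and the genes were named after their values were seen. Arcn1, a COPI coat subunit of Golgi transport, was at 134 to 153 CPM in mutants and 96.7 to 133 CPM in controls (+0.26 ± 0.11), the single gene (0.00481%) with every mutant above every control. Mustn1, at 0.559 to 1.23 CPM in mutants and 1.29 to 2.22 CPM in controls, and Gm29543, at 0.524 to 0.8294 CPM in mutants and 0.845 to 1.44 CPM in controls, were the 2 (0.00961%) with every mutant below every control.

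**Figure D2:**
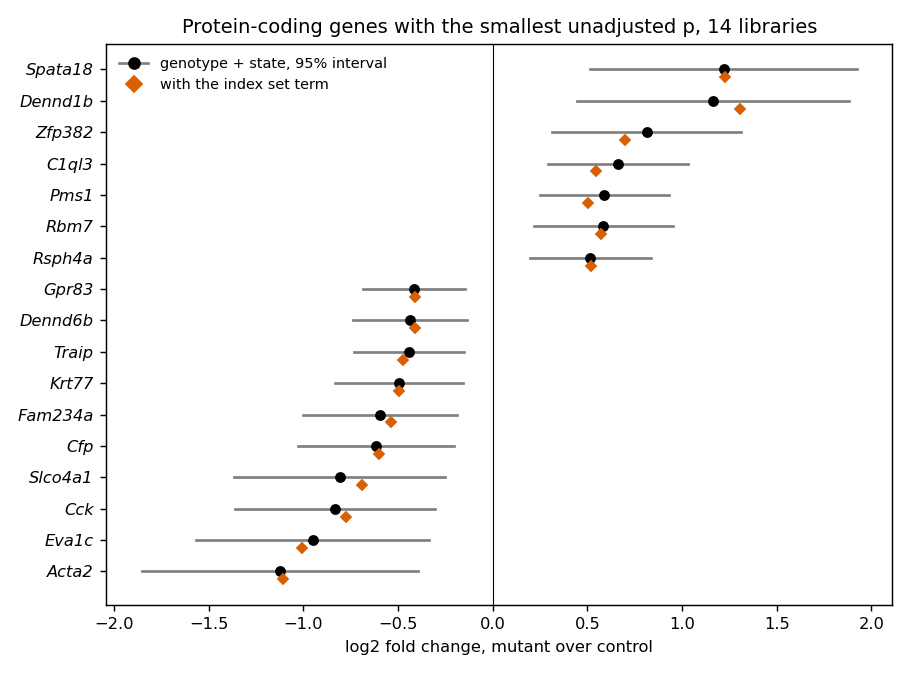
Log2 fold change, mutant over control, of the 17 protein-coding genes among the 10 smallest unadjusted p-values on either side of 0, for genes averaging 1 CPM or more. Black points with grey 95% intervals come from the genotype and state model and orange diamonds from the model with the index set term; no gene passed adjustment, and each diamond lies on the same side of 0 as its point.

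Peptides of the lateral hypothalamus concern the region named in the study's title. Of the 12 listed genes 7 had estimates above 0 and 5 below, with a median of +0.07, and 2 had an unadjusted p under 0.05, both lower. Hcrt (ENSMUSG00000045471, chromosome 11, 100761069 to 100762931, minus strand), the orexin precursor of wake-promoting neurons, had 163 and 90.7 CPM in mutants at ZT6 and 17.3, 126, 185 and 80.2 CPM after SD. In controls it had 23.6, 54.5, 58.7 and 58.6 CPM at ZT6 and 47.3, 33.2, 137 and 47.3 CPM after SD. Every mutant but SD replicate 1 stood above every control but SD replicate 3. Hcrt averaged 110 ± 60.9 CPM in mutants (SD, n = 6) and 57.6 ± 34.5 CPM in controls (SD, n = 8), at +0.93 ± 0.44 (95% interval −0.004 to 1.87, unadjusted p = 0.05081, edgeR adjusted p = 0.9891). With the index set term it was +0.46, and 4 of 5 combinations were higher in mutants. All libraries of index set 1 were below 50 CPM, whichever the genotype, and that set holds 1 mutant and 3 controls. In bulk tissue fewer cells of a type and less RNA per cell cannot be told apart, and the part of dissection in Hcrt was not tested.

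Pmch, the melanin-concentrating hormone precursor of neighbouring neurons, had a smaller genotype estimate than Hcrt but ranked the libraries much alike. It had 1184 and 674 CPM in mutants at ZT6 and 229, 858, 1042 and 560 CPM after SD, against 366, 908, 640 and 693 CPM at ZT6 and 523, 458, 1120 and 940 CPM after SD in controls. The estimate was +0.11 ± 0.33, and −0.25 with the index set term. Mutant SD replicate 1 was lowest for both Hcrt and Pmch, followed by control ZT6 replicate 1 and control SD replicate 2. Mutant ZT6 replicate 1, mutant SD replicate 3 and control SD replicate 3 were highest for both. The sum of the 12 genes was also lowest in mutant SD replicate 1, at 503.9 CPM, where 7 neuronal markers were lowest at 2283 CPM. Cartpt, the CART peptide precursor, had 30.6 to 65.8 CPM in mutants and 34.96 to 159 CPM in controls (−0.68 ± 0.31), and was lower in 5 of 5 combinations. Its estimate was −0.35 without control ZT6 replicate 2 and control SD replicate 4, and −0.38 without the first of these alone. Nptx2, a secreted pentraxin of excitatory synapses, was at −0.38 ± 0.18.

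Of 32 genes in the feeding and arousal list 16 lay above and 16 below 0. An unadjusted p under 0.05 was reached by 4 of them, all lower, against 1.79% of all genes that were lower at that level. With the index set term 20 of the 32 lay below 0, and within SD alone 24, against 15 within ZT6. The share of all genes below 0 within each state was not taken. The 5 genes described next are peptides of arcuate or paraventricular neurons, each with an estimate below 0. Agrp, an appetite-stimulating peptide, had 7.04 to 17.9 CPM in mutants and 4.46 to 34.8 CPM in controls (−0.43 ± 0.39). Npy, its partner in the same neurons, had 27.4 to 65.1 CPM in mutants and 31.1 to 96.3 CPM in controls (−0.43 ± 0.27). Avp, vasopressin, had 190 to 260 CPM in mutants and 133 to 714 CPM in controls (−0.53 ± 0.36). Oxt, oxytocin, had 104 to 224 CPM in mutants and 43.2 to 355 CPM in controls (−0.14 ± 0.42). Ghrh, the growth hormone releasing hormone, had 5.66 to 9.35 CPM in mutants and 6.16 to 26.0 CPM in controls (−0.80 ± 0.29) and was lower in 5 of 5 combinations. For Agrp, Avp, Oxt and Ghrh the highest control was ZT6 replicate 2, and for Npy it was SD replicate 4. Without those 2 libraries the estimates were +0.03 for Agrp, −0.10 for Npy, −0.02 for Avp, +0.26 for Oxt and −0.41 for Ghrh.

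Pomc, the precursor of melanocortins in the arcuate nucleus and of ACTH in the pituitary, cannot be read as a hypothalamic gene in all libraries. It had 4069 CPM in mutant SD replicate 1, against 18.5 to 104 CPM in the other 5 mutants, and 1134 CPM in control ZT6 replicate 1, against 24.1 to 91.2 CPM in the other 7 controls. The 11 pituitary genes, with prolactin (Prl) and the growth hormone releasing hormone receptor (Ghrhr), summed to 24770 CPM in mutant SD replicate 1, 1236 CPM in mutant SD replicate 4 and 1799 CPM in control ZT6 replicate 1. They summed to 20.22 to 39.09 CPM in the other 4 mutants and 27.1 to 124.5 CPM in the other 7 controls. Prl had 2157, 138 and 50.2 CPM in those 3 libraries. The Pomc estimate was +2.34 ± 2.22, and −1.38 without the 3 libraries. None of the 11 was called by edgeR in the additive model. With the index set term edgeR called 3 genes after SD, all highest in mutant SD replicate 1, namely Prl (adjusted p = 0.001218), Lhb, a pituitary gonadotropin subunit (adjusted p = 0.008162), and Gm14617.

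Prohormone processing was examined because Pcsk1 and its regulator Nhlh2 have been linked to Prader-Willi syndrome. Of 13 genes 10 had estimates above 0, with a median of +0.11, and 1 had an unadjusted p under 0.05, where 44.5% of all genes tested lay above 0. Within ZT6 alone 11 of the 13 lay above 0. Within SD alone 6 lay above and 7 below 0, with a median of −0.02. The share of all genes above 0 within each state was not taken. Pcsk1 (ENSMUSG00000021587, chromosome 13, 75089826 to 75134861, plus strand), the convertase PC1 that cuts prohormones, had 93.6 and 81.4 CPM in mutants at ZT6 and 119, 119.5, 113 and 85.7 CPM after SD. In controls it had 67.1, 52.6, 91.9 and 74.4 CPM at ZT6 and 68.9, 93.4, 105 and 62.4 CPM after SD. The ranges overlapped, and 3 mutants stood above every control. The means were 102 ± 17.2 CPM in mutants (SD, n = 6) and 77.0 ± 17.9 CPM in controls (SD, n = 8), at +0.36 ± 0.16 (95% interval 0.03 to 0.69, unadjusted p = 0.03522, edgeR adjusted p = 0.9891). Pcsk1 was higher in mutants in 5 of 5 combinations, and the index set term left the estimate at +0.36. The estimate was +0.26 when control ZT6 replicate 2 and control SD replicate 4 were left out, the 2 lowest of the 14. Nhlh2, a transcription factor that activates Pcsk1, was at 0.355 to 2.42 CPM in mutants and 0.151 to 2.46 CPM in controls (+0.61 ± 0.54). The estimate was +0.009 without index numbers 43 to 46. Cpd, a carboxypeptidase of the same pathway, was at +0.24 ± 0.17.

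**Figure D3:**
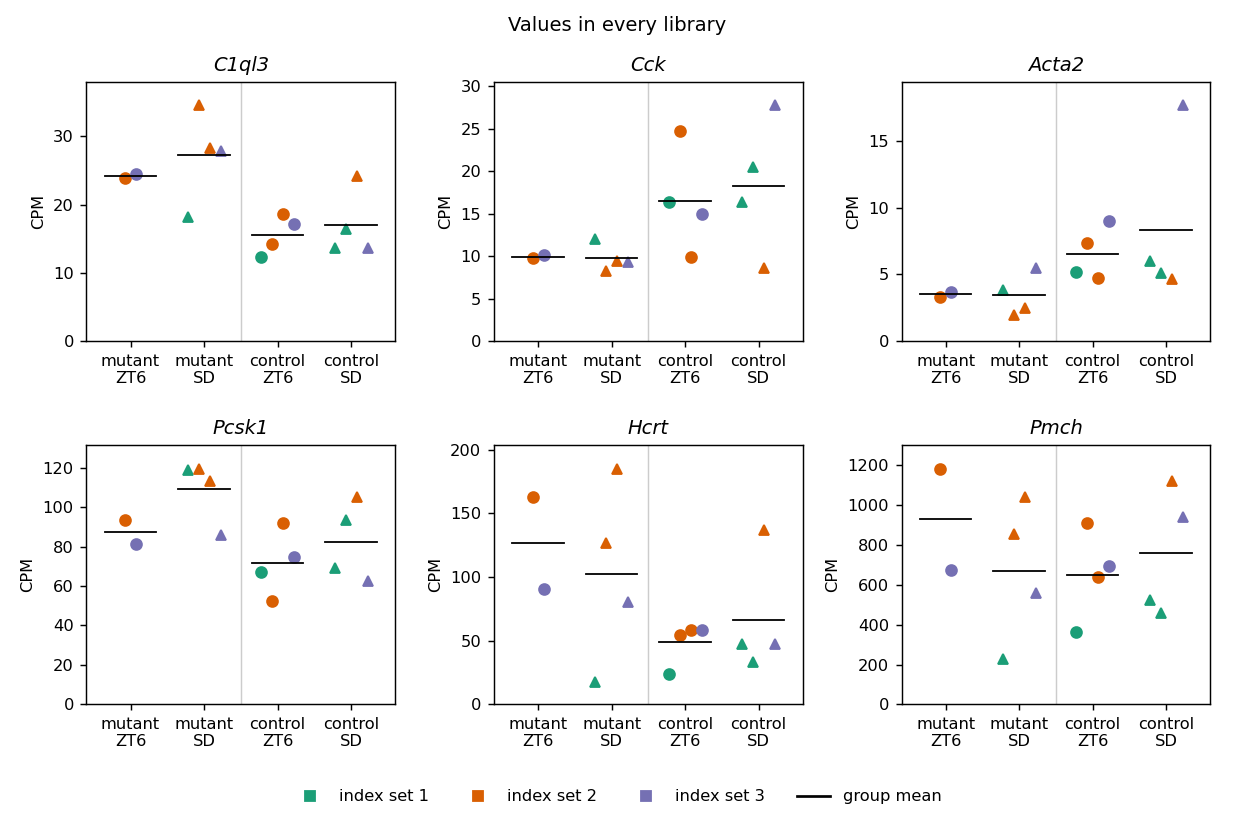
CPM of 6 genes in every library (linear axes from 0), mutant groups left of control groups; circles are ZT6, triangles SD, colours index sets and bars group means. C1ql3 and Pcsk1 average higher and Cck and Acta2 lower in mutants, with overlapping libraries, and Hcrt and Pmch are lowest or near lowest in index set 1.

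Identity genes gave no common direction. Among 27 hypothalamic transcription factors 13 estimates lay above and 14 below 0. Fezf1, a factor of the ventromedial hypothalamus, had 11.3 to 17.4 CPM in mutants and 14.2 to 26.1 CPM in controls (−0.48 ± 0.19). Of 15 transmitter genes 7 lay above and 8 below 0. Gad2, a GABA-synthesizing enzyme, was at +0.42 ± 0.24, and Hdc, which makes histamine in the arousal neurons of the tuberomammillary nucleus, at −0.42 ± 0.19. The Hdc estimate was −0.28 with the index set term.

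Ribosomal protein genes formed a one-sided list, as did 4 shorter lists with all members below 0 (meninges, endothelium, tanycytes and cold-inducible proteins). All 81 had estimates below 0, against 55.5% of all genes, with a median of −0.37, and 2 had an unadjusted p under 0.05. The members share libraries and are not independent of each other. Rpl36 had 54.8 to 89.9 CPM in mutants and 46.5 to 291 CPM in controls (−0.70 ± 0.32), and Rpl18 had 74.1 to 121 CPM in mutants and 72.7 to 270 CPM in controls (−0.58 ± 0.25). Summed over the list, mutants had 16870 and 16300 CPM at ZT6 and 15010, 12730, 13000 and 15180 CPM after SD. Controls had 16680, 36230, 10340 and 16250 CPM at ZT6 and 17760, 14930, 15700 and 26110 CPM after SD. Control ZT6 replicate 2 and control SD replicate 4 stood far above the other 12, and control ZT6 replicate 3 was the lowest of the 14. Without those 2 high libraries the median was −0.037 and 50 of 81 estimates lay below 0. The mean log2 level of the members was lower in mutants in 5 of 5 combinations, of which 2 hold the high controls. Differences were −0.118 (set 1, SD), −0.226 (set 2, ZT6), −0.263 (set 2, SD), −0.084 (set 3, ZT6) and −0.808 (set 3, SD). Control ZT6 replicate 2 belongs to set 2, ZT6, and control SD replicate 4 is the only control in set 3, SD.

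Nuclear-encoded respiratory chain genes followed the same libraries. Of 76 members 72 had estimates below 0, with a median of −0.34, and 2 had an unadjusted p under 0.05, where 2.73% of all genes did. With the index set term 75 lay below 0 with a median of −0.44, and 22 had an unadjusted p under 0.05, where 7.28% of all genes did. These members also share libraries and are not independent of each other. Within ZT6 alone 57 lay below 0 with a median of −0.13, and within SD alone 76 with a median of −0.44. The share of all genes below 0 within each state was not taken. Ndufa11, a complex I subunit, had 33.0 to 70.5 CPM in mutants and 42.5 to 166 CPM in controls (−0.67 ± 0.29), and Ndufs7, another, was at −0.48 ± 0.21. The list summed to 7295 to 11110 CPM in mutants and 7162 to 18410 CPM in controls, and its 2 highest libraries were again control ZT6 replicate 2 and control SD replicate 4, at 18410 and 14550 CPM. Without both, in the model that has no index set term, the median was −0.048, with 52 of 76 below 0. The 13 genes of the mitochondrial genome, which encode subunits of the same complexes, did not share this order. Of these 7 lay above and 6 below 0 with a median of +0.02, mt-Atp8 was at +0.39 ± 0.35 and mt-Nd5 at +0.19 ± 0.27, and control ZT6 replicate 2 at 49860 CPM was within the range of the others.

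Meningeal markers were also highest in those 2 controls. The 11 meningeal and fibroblast genes all had estimates below 0 (median −0.43, 2 with an unadjusted p under 0.05), and summed to 322.7 and 743.7 CPM in mutants at ZT6 and 789.9, 415.2, 896 and 478.3 CPM after SD. Controls had 492.3, 2968, 259.8 and 1627 CPM at ZT6 and 1491, 1079, 442.8 and 2156 CPM after SD. Ptgds, a prostaglandin synthase made by meninges and glia, had 262 to 722 CPM in mutants and 173 to 2686 CPM in controls (−1.30 ± 0.54), and Slc6a13, a meningeal GABA transporter, was at −1.25 ± 0.56. Leaving out the 2 high controls put Ptgds at −0.69, and the index set term put the list's median at −0.16. In mean log2 level the list was higher in mutants in set 1 SD (0.687) and set 2 SD (0.820) and lower in the other 3 combinations, so its direction differed between them. All 10 endothelial and pericyte genes had estimates below 0 (median −0.20), with Vtn, vitronectin of pericytes, at −0.66 ± 0.23 and Ly6c1 at −0.37 ± 0.17. Their sums were 207 to 322 CPM in mutants and 221 to 383 CPM in controls. The 7 tanycyte genes, such as Rax (−0.61 ± 0.44) and Crym (−0.37 ± 0.28), also lay below 0 (median −0.16), as did 9 of 10 microglial genes (median −0.16), among them C1qb (−0.36 ± 0.24) and C1qc (−0.28 ± 0.21). Leaving out the same 2 controls put C1qb at −0.10, C1qc at −0.18, Crym at −0.14 and Rax at −0.39. The part of these cells in the ribosomal, respiratory chain and peptide estimates was not tested.

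**Figure D4:**
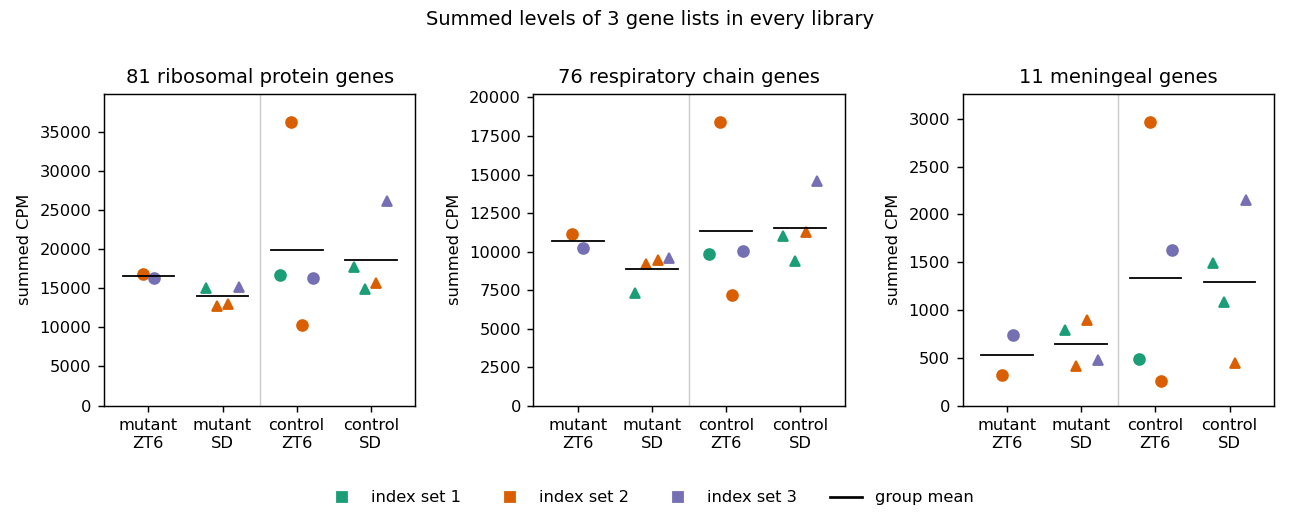
Summed CPM of the ribosomal protein, respiratory chain and meningeal lists in every library, with linear axes from 0 and mutant groups left of control groups; circles are ZT6, triangles SD, colours index sets and bars group means. Control ZT6 replicate 2 and control SD replicate 4 are the highest in all 3 panels.

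Neural cell lists were near balance in the pooled fit, and most of their counts above 0 differed between the states. Pooled estimates lay above 0 for 4 of 7 neuronal, 5 of 12 myelin, 4 of 10 astrocyte and 4 of 7 oligodendrocyte precursor genes, with medians between −0.15 and 0.03. In the same order, 7, 10, 6 and 4 genes lay above 0 within ZT6 alone, and 2, 4, 3 and 4 within SD alone. The share of all genes above 0 within each state was not taken, so these counts cannot be read as particular to the lists. Of 25 synaptic genes 17 lay above 0 (median +0.03).

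The additive model assumes that genotype acts alike at ZT6 and after SD. At ZT6, with 2 mutants against 4 controls, no gene was called by edgeR (0, with 404 or 1.94% at an unadjusted p under 0.05; DESeq2 13). After SD, with 4 against 4, it called 0 (429, 2.06%; DESeq2 1). The interaction of genotype with state gave 0 (375, 1.8%; DESeq2 10). Genotype estimates had the same sign in both states for 54.9% of genes, and their Spearman correlation across genes was 0.130 at a mean of at least 1 CPM, a description over genes that share libraries. The genes with the smallest p in a single state were mostly near the detection limit. Cwf19l1 had 3.70 and 1.78 CPM in mutants and 1.41, 1.03, 1.11 and 0.486 CPM in controls at ZT6, and 0.446, 1.07, 0.483 and 0.504 CPM in mutants and 3.19, 1.35, 4.31 and 4.97 CPM in controls after SD. Its mutants were above every control at ZT6 and below every control after SD, an order for which it was selected by p. DESeq2 called Cwf19l1 for the interaction (adjusted p = 0.01764). Gm26686, a long noncoding RNA, had 1.24 and 1.85 CPM in mutants and 3.50 to 8.86 CPM in controls at ZT6, and 1.94 to 2.63 CPM in mutants and 1.055 to 2.59 CPM in controls after SD. Cyp4f14 and Gm26509 were at 0 in both ZT6 mutants and at or below 1.76 CPM elsewhere, and DESeq2 called Cyp4f14 at ZT6 (adjusted p = 0.03518). Gnrhr, a pituitary receptor, was at 13.9 CPM in mutant SD replicate 1 and at most 0.805 CPM in the rest. Gm23053, annotated as a microRNA gene inside Mtpn, had 0.603 to 1.70 CPM in mutants and 0.0502 to 0.880 CPM in controls (+2.63 ± 0.57, unadjusted p = 0.000355). It shares a strand with its host, so its reads cannot be assigned to it alone.

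**Figure D5:**
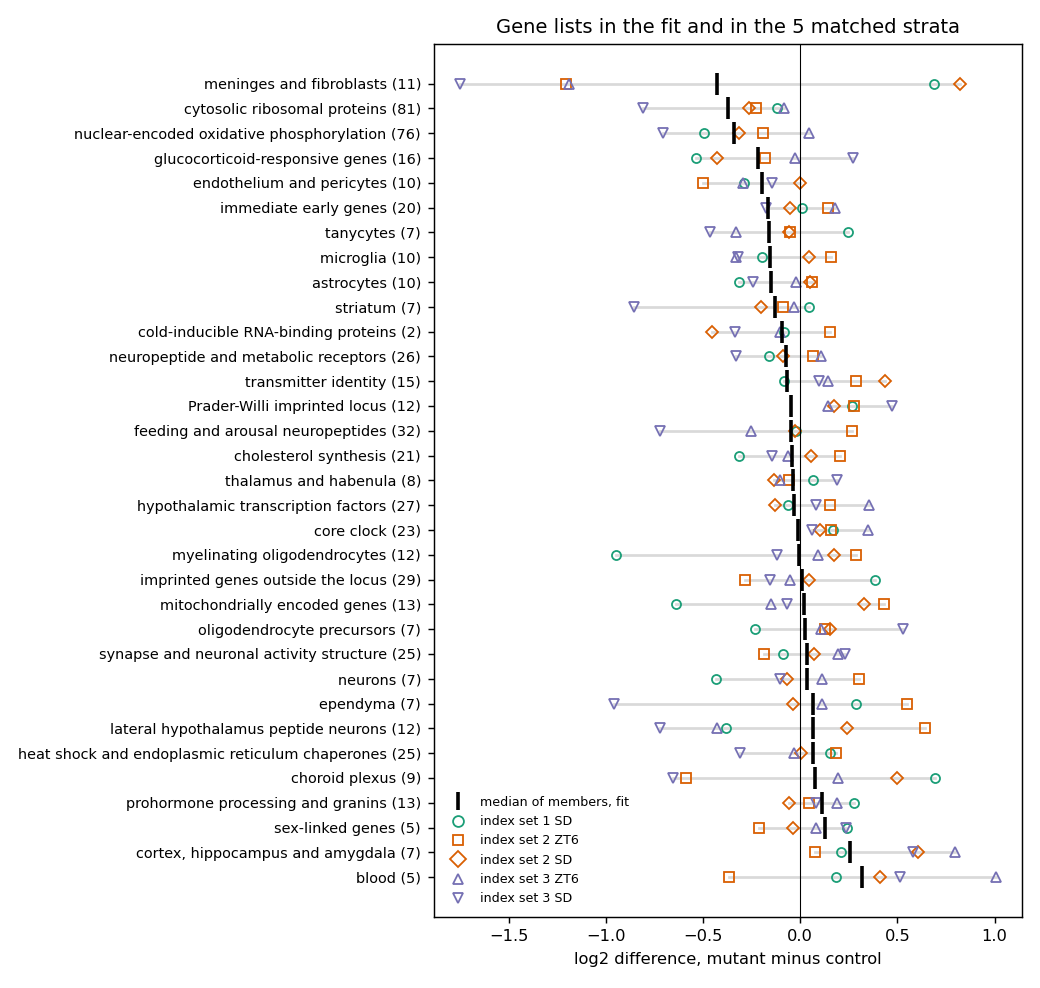
Gene lists (number of members tested in brackets; the pituitary list is left out) ordered by the median log2 fold change of their members, mutant minus control (black bars). Open symbols are differences in the members' mean log2 CPM within the 5 combinations of index set and state; the ribosomal list is below 0 in all 5, and the meningeal list lies on both sides.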

How the data were processed

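RNA was taken with Trizol and made into TruSeq poly(A) libraries read on a NovaSeq instrument, and reads were checked with FastQC, trimmed with Trimmomatic 0.38 and quantified with kallisto 0.44.0, per the labels' protocols. The deposited values are estimated counts per gene, summed from transcripts with tximport and rounded to whole numbers in the table the authors deposited. Of 41461 gene lines 5 repeats were dropped. Whether strand was used in counting is not given in the sources used here.

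The 14 libraries held 14609454 to 46965594 counts. Genes were kept with edgeR's filterByExpr (min.count 10, min.total.count 15), which left 20809, scaled by TMM and tested with edgeR 4.0.16 (quasi-likelihood, R 4.3.3) on genotype and state, with Benjamini-Hochberg adjustment and a threshold of 0.05. CPM are TMM-scaled, except the marker sum of the library left out. SE was taken as the size of the log2 fold change divided by the root of F. Alternatives used DESeq2 1.42.0, limma 3.58.1 and sva 3.50.0. The scripts were tested on simulated data. Locus sums were compared on log2(CPM + 1) by exact permutation within state. Coordinates and sequences are from GENCODE M21 (GRCm38), which names 41193 of 41456 gene IDs. The labels number no replicates, so replicates are numbered in accession order. The edgeR p-values weigh a difference against the spread between these libraries. The permutation p-values set it against the differences under permuted genotype labels.

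The libraries, members and gene lists were chosen with earlier results of these data known. Genes are named by rule: the 10 smallest p-values on either side of 0 among genes averaging 1 CPM or more, the locus, the 2 smallest p-values of each list, and the 3 smallest within each state and for the interaction, with listed peptides. Others are said to be named after their values were seen. Some items that the rule names are not reported here.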

Additional observations from a re-analysis of the deposited data

Results flagged for a closer look

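Groups of 4 libraries were examined for 83 genes and sums. In 33 of 245 groups (13.5%) 1 library stood apart from the other 3 by Dixon's criterion. Its chance rate of about 1 in 20 assumes normally distributed values, and the values used were CPM without a log. Any nonzero value stands apart where the other 3 libraries have no counts, as for Ghrhr at 0.0266 in control SD replicate 1. The genes were also chosen partly by p and share libraries. The 13.5% therefore cannot be compared with the chance rate. Mutant SD replicate 1 was the high library 6 times, control SD replicate 4 was high 5 times and control ZT6 replicate 1 was high 4 times. All values are CPM.

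Mutant SD replicate 1 had 4069 for Pomc, 2157 for Prl, 20.26 for Ghrhr, 13.86 for Gnrhr, 4.272 for Slco4a1 and 50.29 for Dbp. Control ZT6 replicate 1 had 1134 for Pomc, 50.24 for Prl, 0.4428 for Ghrhr and 51.54 for Dennd6b, and was low for Hcrt at 23.63. Pomc, Prl, Ghrhr and Gnrhr are genes of the pituitary list.

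Control SD replicate 4 had 17.63 for Acta2, 5.072 for Eva1c, 53.13 for Egr1, 9.441 for Ube3a and 0.05022 for Gm9755. The remaining libraries of index set 3 gave 7.945 for Gm5884 and 40.29 for Egr1 in mutant SD replicate 4, and 1.251 for Gm5884, 1.112 for Gm9755 and 7.089 for Ube3a in control ZT6 replicate 4.

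Mutant SD replicate 2 was low for Krt77 at 8.504 and for Ghrh at 5.658, and high for Cwf19l1 at 1.071. Mutant SD replicate 3 had 17.42 for Fezf1. Control ZT6 replicate 2 had 159.1 for Cartpt and 281.6 for Snord116. Control SD replicate 3 had 137.3 for Hcrt, 558.4 for Gad2 and 20.21 for Snord116. Control SD replicate 2 had 738.9 for mt-Atp8 and 0.08618 for Gnrhr, and control SD replicate 1 had 0.0266 for Ghrhr.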

How the results depend on the processing

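No paired analysis was possible because the labels give no replicate numbers. Genotype gave 0 called genes under every alternative run except DESeq2 (1), and 0 without each single library. DESeq2 called 27 genes for state, 13 for genotype at ZT6, 1 for genotype after SD and 10 for the interaction. With the 3 index sets as a term state gave 4, also with DESeq2 scaling (chosen after seeing the data), and genotype after SD gave 3 (Prl, Lhb and Gm14617); limma-voom with sample weights gave 1 for state. Without 1 library the counts ran from 0 to 1 for state, 0 to 2 at ZT6 and 0 to 1 for the interaction. Leaving out control ZT6 replicate 2 and control SD replicate 4 was also chosen after seeing the data. The Snhg14 difference was −1.02 and the Snord116 difference −2.71 without index numbers 43 to 46, and Snord116 was −3.70 with a pseudocount of 0.1. Without 1 library they ran from −0.99 to −0.51 and from −2.33 to −1.17, the last without control ZT6 replicate 2. For most of these shifts the cause was not tested.

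Of 3389 values of 110 named genes under 31 alternatives, 0 were called, 64 had changed sign (34 genes) and 161 had moved by over 1 SE. Adding back the 2 libraries left out put Cck at +0.53 and Acta2 at +2.60. Of 748 list medians 3 moved by over 1 SD of libraries. The median of all genes was −0.015 with RLE scaling. Small counts limit Snord116, where a count of 0 allows 3 counts.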

Other observations

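Clock, activity and stress genes were also measured. Of 23 core clock genes 11 estimates lay above and 12 below 0 in mutants, and 1 had an unadjusted p under 0.05. Of these Ciart, a repressor of the clock, had 6.66 to 10.8 CPM in mutants and 5.98 to 13.7 CPM in controls (−0.40 ± 0.17), and Dbp, a clock output factor, 26.2 to 50.3 CPM in mutants and 31.1 to 85.3 CPM in controls (−0.48 ± 0.24). Of 20 immediate early genes 14 lay below 0 with a median of −0.16, but 10 of 20 with a median of +0.004 with the index set term. Among them were Fos (−0.32 ± 0.21) and Egr1 (−0.34 ± 0.26). Of 16 glucocorticoid-responsive genes 11 lay below 0 with a median of −0.22. In that list Mt2, a metallothionein, had 54.9 to 110.7 CPM in mutants and 39.6 to 222 CPM in controls (−0.73 ± 0.32), and Sult1a1, a sulfotransferase, was at −0.86 ± 0.34. Without control ZT6 replicate 2 and control SD replicate 4 they were at −0.40 and −0.47.

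Of 29 imprinted genes outside the Prader-Willi region 16 lay above and 13 below 0. Nespas, an antisense transcript of the Gnas locus, had 39.1 to 109.6 CPM in mutants and 20.8 to 69.9 CPM in controls (+0.68 ± 0.30), and Igf2, a growth factor made by meninges and vessels, 15.3 to 58.8 CPM in mutants and 23.9 to 155.5 CPM in controls (−0.95 ± 0.47), or −0.62 without those 2 controls. None of the genes in these lists was called by edgeR.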
